A study of Mus musculus with 18 samples.

Results

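The renin-angiotensin genes described here are 9: the precursor gene Agt, the protease gene Ren1, the peptidase genes Ace, Enpep, Anpep, Mme and Lnpep, and the receptor genes Agtr1a and Agtr2. They are 9 of the 47643 genes in the deposited count table and were found by symbol. They were chosen because Agt and Enpep were higher than control with both Rnf185 hairpins. The members' differences from control thus describe why the list exists, and the calls on them below are descriptive only. All 9 mapped to an Ensembl identifier. 6 of them passed the filter on low counts, and the other 3, Agtr1a, Agtr2 and Ren1, had no count in any library.

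The series holds 18 libraries of polyadenylated RNA from MPC3, a mouse cell line used here in a series on prostate cancer. The 6 control libraries are titled plko and labelled as control. The 6 shRNF185.1 and the 6 shRNF185.3 libraries each express a short hairpin RNA against Rnf185, a ubiquitin ligase of the endoplasmic reticulum, and both are labelled as RNF185 knockdown. Every group has 2 libraries in each of 3 labelled batches, and all groups share the MPC3 background. The labels do not say whether the libraries came from separate cultures or from 1 clone, so p-values measure the spread between these libraries, which may be technical. The deposited counts are named for the ComBat-Seq batch adjustment, and the main fits have no batch term. The spread that the p-values measure is thus the one left after that adjustment. Totals ran from 22027395 to 43379662 counts a library. Levels are scaled CPM (counts normalised to library size), and 3 values joined in a sentence stand for control, shRNF185.1 and shRNF185.3 in that order, as mean ± SD with n = 6 each. Rnf185 averaged 35.9 ± 1.959, 5.81 ± 0.582 and 5.80 ± 0.546 CPM, and no library went against its label. The keratins Krt8 and Krt18 and the prostate factor Hoxb13 were present in all groups, whereas the luminal marker Pbsn had 0 counts in all.

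Angiotensinogen, the product of Agt, is a secreted protein of the serpin family from which renin cuts angiotensin I. Angiotensin-converting enzyme, the product of Ace, turns angiotensin I into angiotensin II, which acts on the receptors encoded by Agtr1a and Agtr2. Aminopeptidase A, the product of Enpep, removes the first residue of angiotensin II to give angiotensin III, and aminopeptidase N, the product of Anpep, shortens that peptide in turn. Neprilysin, the product of Mme, cleaves angiotensins and many other small peptides at the cell surface, and Lnpep encodes the insulin-regulated aminopeptidase, which binds angiotensin IV. Neprilysin and aminopeptidase N are well known from the surface of prostate epithelium.

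The promoters of Agt and Enpep are shown because those genes differed most from control. They are the 250 bases before each RefSeq transcription start in GRCm38.p6, written 5′ to 3′ on the gene's own strand, which is the minus strand for both. The Agt window is chr8:124569707-124569956 and the Enpep window is chr3:129332750-129332999. Capitals mark matches to TTCNNNGAA, a pattern that STAT factors bind, and to the TATA box TATAAA on either strand.
Agt: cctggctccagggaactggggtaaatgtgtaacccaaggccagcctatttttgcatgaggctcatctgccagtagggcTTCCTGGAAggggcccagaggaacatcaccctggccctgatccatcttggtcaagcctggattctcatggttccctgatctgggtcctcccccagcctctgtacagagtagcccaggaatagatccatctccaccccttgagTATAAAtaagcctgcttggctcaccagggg
Enpep: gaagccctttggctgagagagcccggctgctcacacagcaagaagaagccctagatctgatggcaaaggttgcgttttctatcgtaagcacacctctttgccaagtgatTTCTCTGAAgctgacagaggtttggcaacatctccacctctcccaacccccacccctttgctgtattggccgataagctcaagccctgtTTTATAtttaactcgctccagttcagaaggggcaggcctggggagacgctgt

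Both windows held the TTCNNNGAA pattern, from base -172 to -164 in Agt and from -141 to -133 in Enpep, counting -1 as the base before the start. The pattern occurred in 7.02% of the 32851 mouse promoter windows of the same length. TATAAA occurred in 12.4% of them. In Agt it read along the gene from -30 to -25, and in Enpep it lay on the opposite strand from -52 to -47. The looser patterns GGG and CC with 5 bases of any kind between them, for NF-kB, and TTNNGNAA for C/EBP occurred in 45.8% and 36.8% of all windows. The first matched both promoters, at overlapping positions on both strands in Agt, and the second matched Enpep. The patterns AGAACA for the glucocorticoid receptor, TGANTCA for AP-1 and a repeated GAAA with 2 bases of any kind between, for interferon-stimulated response elements, occurred in 16.1%, 6.75% and 2.98% of all windows and were in neither window. Of the other members, Anpep, Ace, Agtr2, Ren1, Mme and Lnpep also had RefSeq promoter entries, and TTCNNNGAA matched among them in 1 of the 3 Mme windows. All patterns were searched on both strands. These matches describe letters and not binding.

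Agt (ENSMUSG00000031980) is a minus-strand gene at 124556534 to 124569706 of chromosome 8 in GRCm38, with 1891 exonic bases in GENCODE M21. It was low in every control library, at 0.963, 0.278, 0.826, 0.631, 0.426 and 0.126 CPM in replicates 1 to 6, which rest on 4 to 29 counts. With shRNF185.1 the 6 libraries held 4.83, 1.81, 3.09, 0.969, 7.07 and 4.42 CPM, and with shRNF185.3 they held 4.54, 2.50, 3.75, 4.63, 4.99 and 2.08 CPM. All 12 hairpin libraries lay above the highest control, the closest being shRNF185.1 replicate 4, which exceeded control replicate 1 only by a small margin. The group means were 0.542 ± 0.323, 3.70 ± 2.22 and 3.75 ± 1.21 CPM. These give ratios of 6.82 and 6.92 to control. The log2 differences fitted by edgeR were 2.76 (SE 0.45) and 2.79 (SE 0.45), the values that put Agt on the list. Without batch 3 that of shRNF185.1 was 1.98. In bulk RNA such as this, more cells that make a transcript and more transcript per cell cannot be told apart.

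Enpep (ENSMUSG00000028024) is a minus-strand gene at 129269175 to 129332720 of chromosome 3 with 4706 exonic bases. Its control libraries held 0.465, 0.626, 0.661, 1.10, 0.888 and 0.533 CPM. The shRNF185.1 libraries held 3.62, 7.64, 3.23, 3.88, 8.38 and 4.21 CPM, and the shRNF185.3 libraries held 4.18, 7.94, 5.33, 7.65, 6.40 and 3.78 CPM. The groups did not overlap: the lowest hairpin library stood well above the highest control, at 3.23 against 1.10 CPM. The mean was 7.25 times the control mean with shRNF185.1 and 8.26 times with shRNF185.3. The fitted log2 differences were 2.83 (SE 0.30) and 3.02 (SE 0.30), again the values behind the choice. Over the 14309 genes tested, all 6 libraries lay above the highest control for 7.02% with shRNF185.1, for 7.6% with shRNF185.3 and for 4.22% with both. Agt and Enpep are the members that did so.

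Ace stood on the other side of control. Ace (ENSMUSG00000020681) is a plus-strand gene at 105967945 to 105989964 of chromosome 11. Its exons overlap 1 gene on the opposite strand, and whether counting used the strand is not given in the sources used here. Control libraries held 13.1, 7.97, 16.4, 12.2, 7.17 and 4.64 CPM. The shRNF185.1 libraries held 5.56, 3.77, 3.41, 2.56, 6.56 and 5.07 CPM and the shRNF185.3 libraries 4.85, 4.01, 3.67, 4.85, 6.90 and 4.35 CPM. Control replicate 6 fell inside the range of both hairpin groups, and 3 of 6 libraries of each hairpin lay below it. No member had all 6 libraries of a hairpin below the lowest control, which 5.77% of genes had with shRNF185.1, 5.7% with shRNF185.3 and 2.36% with both. The means of Ace were 10.2 ± 4.36, 4.49 ± 1.496 and 4.77 ± 1.14 CPM, or 43.8% and 46.6% of control with the hairpins. The fitted log2 differences were -1.19 (SE 0.27) and -1.10 (SE 0.27). Without batch 2 they were -0.65 and -0.71, and without batch 3 they were -1.70 and -1.51.

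**Figure D1:**
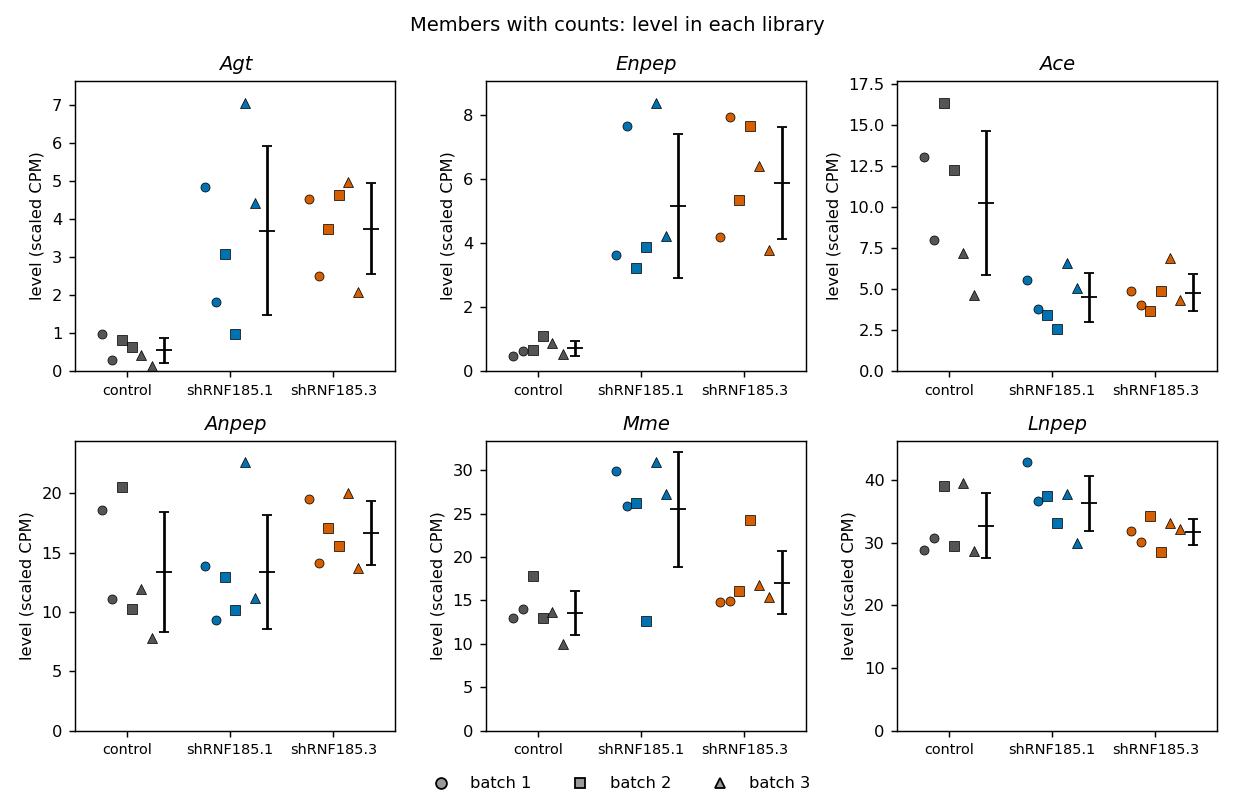
Level of the 6 members with counts in each library, in scaled CPM on linear axes from 0, with 1 point a library, its shape giving the batch, and the mean with its SD beside each group of 6. All 12 hairpin libraries lie above every control for Agt and Enpep, the groups overlap for Ace only through control replicate 6, and Anpep and Lnpep overlap throughout.

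Mme was higher with shRNF185.1 and close to control with shRNF185.3. Mme (ENSMUSG00000027820) is a plus-strand gene at 63241537 to 63386030 of chromosome 3. It held 12.9, 13.99, 17.8, 12.96, 13.7 and 9.98 CPM in control, and 29.9, 25.9, 26.2, 12.6, 30.9 and 27.3 CPM with shRNF185.1. All but replicate 4 of the shRNF185.1 libraries lay above the highest control. With shRNF185.3 the values were 14.9, 14.9, 16.1, 24.3, 16.8 and 15.4 CPM, and only replicate 4 lay above it. Replicate 4 was thus the lowest library with one hairpin and the highest with the other. Against control the edgeR fit gave Mme 0.91 (SE 0.18) for the first hairpin and 0.34 (SE 0.18) for the second, on the log2 scale.

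Anpep and Lnpep were the members nearest to control. Anpep (ENSMUSG00000039062, chromosome 7 from 79821803 to 79861059, minus strand) ranged from 7.78 to 20.5 CPM in control, from 9.36 to 22.6 with shRNF185.1 and from 13.7 to 20.02 with shRNF185.3. Its fitted log2 differences were 0.01 (SE 0.23) and 0.33 (SE 0.23). Lnpep (ENSMUSG00000023845, chromosome 17 from 17521410 to 17625050, minus strand) ranged from 28.6 to 39.6 CPM in control, from 29.98 to 42.9 with shRNF185.1 and from 28.5 to 34.3 with shRNF185.3. Its fitted log2 differences were 0.15 (SE 0.09) and -0.04 (SE 0.09). For both genes the 3 groups overlapped.

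By the threshold used throughout, an adjusted p under 0.05 in edgeR's quasi-likelihood test over 14309 genes, 4 of the 6 members were called with shRNF185.1, namely Agt, Enpep and Mme higher and Ace lower. With shRNF185.3 the calls were Agt and Enpep higher and Ace lower. Over all genes the threshold called 28.9% with shRNF185.1 (14.6% higher and 14.3% lower) and 27.3% with shRNF185.3 (14.2% higher and 13.1% lower). Agt and Enpep were called higher and Ace lower with both, as were 8.99% and 7.13% of all genes. The list was chosen from these same contrasts, so the counts are descriptive only.

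Renin and the angiotensin receptors were not detected at this depth. Ren1, Agtr1a and Agtr2 had 0 counts in each of the 18 libraries, which allows up to 3 counts, or between 0.0692 and 0.136 CPM, in a library. This floor covers counting error only. Among related genes named whatever their level, Agtr1b, a mouse paralog of Agtr1a, had 1 count in all. Mas1, whose product responds to a shorter angiotensin, had 21 counts over 12 libraries. Atp6ap2, which encodes the prorenin receptor and also an accessory protein of the proton pump, was abundant, at 95.6 ± 19.3, 85.7 ± 10.3 and 79.1 ± 8.59 CPM. Neither hairpin passed the threshold for Atp6ap2 (log2 difference -0.16, edgeR adjusted p 0.325, and -0.27, adjusted p 0.0873).

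Levels were set side by side between genes per kilobase of exon. In control the order was Anpep at 3.23 CPM per kilobase, Lnpep at 2.31, Ace at 1.94, Mme at 1.17, Agt at 0.286 and Enpep at 0.151. Mme and Agt were the only neighbours whose libraries did not overlap. With shRNF185.1 the order was Anpep at 3.23, Lnpep at 2.57, Mme at 2.21, Agt at 1.95, Enpep at 1.10 and Ace at 0.849, and all neighbours overlapped. With shRNF185.3 it was Anpep at 4.03, Lnpep at 2.24, Agt at 1.98, Mme at 1.48, Enpep at 1.25 and Ace at 0.902, and only Anpep and Lnpep did not overlap. Agt and Enpep thus stood last in control and above Ace in the mean of each hairpin group, although the libraries of Enpep and Ace overlapped there.

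**Figure D2:**
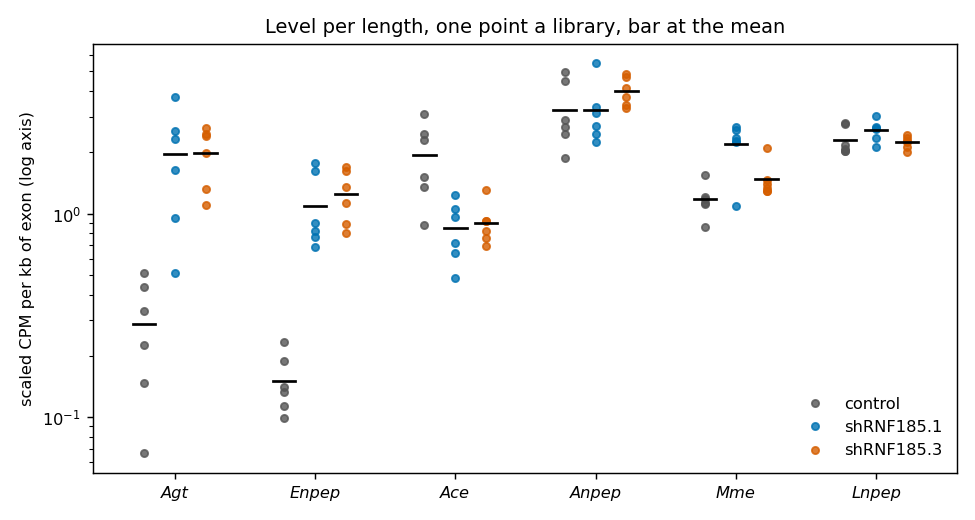
Scaled CPM per kilobase of exon on a log axis for the 6 members with counts, 1 point a library and a bar at each group mean. In control, Agt and Enpep at 0.286 and 0.151 lie apart from the other members, and with shRNF185.1 the points of every member overlap those of its neighbour in the order of means.

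A direct comparison of the hairpins is a contrast that the choice of the members did not use. Mme was the single member of the 6 that passed the threshold, its log2 difference of shRNF185.3 from shRNF185.1 being -0.57 (SE 0.18, edgeR adjusted p 0.0362). In that contrast 14.7% of all genes passed, 7.72% higher and 6.94% lower. The adjusted p of Mme was between 0.00142 and 0.0801 when single libraries were left out. It was above 0.05 when any one of replicates 1, 2, 3, 5 and 6 of either hairpin was left out, which are 10 of the 18 fits. It was 0.0873 with the replicate number as a block, 0.432 without batch 1 and 0.302 without batch 3. Agt differed by 0.03 between the hairpins (adjusted p 0.984), with an interval of 1.96 standard errors from -0.72 to 0.78. Enpep differed by 0.19 (adjusted p 0.731, interval -0.30 to 0.69), Ace by 0.09 (adjusted p 0.902, interval -0.45 to 0.63) and Anpep by 0.32 (adjusted p 0.444, interval -0.13 to 0.77). Lnpep differed by -0.19 (adjusted p 0.205, interval -0.38 to -0.01). For the genes that did not pass, these intervals limit the difference and do not show that the hairpins act alike.

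**Figure D3:**
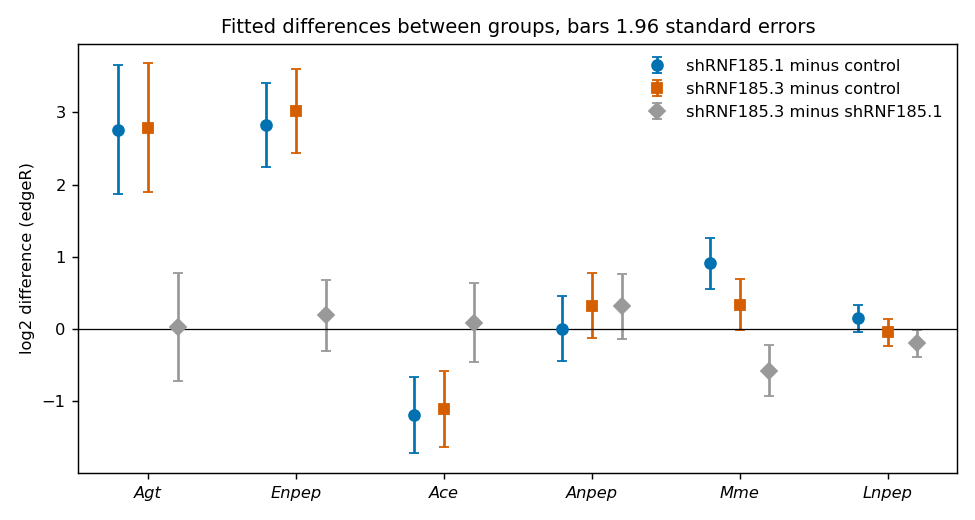
Log2 differences fitted by edgeR for the 6 members with counts, for each hairpin against control and for the second hairpin against the first, with bars of 1.96 standard errors. Agt and Enpep lie between 2.76 and 3.02 with both hairpins, Ace lies near -1.1, and the difference between hairpins is farthest from 0 for Mme, at -0.57.

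The differences from control were also taken within each batch, where each group has 2 libraries. For Agt the differences of mean log2 CPM in batches 1, 2 and 3 were 2.34, 1.19 and 4.18 for shRNF185.1, and for shRNF185.3 they came to 2.52, 2.42 and 3.40. For Enpep they were 3.13, 1.96 and 2.98, and 3.26, 2.80 and 2.71. Both genes were above control in every batch with both hairpins. This follows from every hairpin library lying above the highest control and adds no separate result. Mme was above control in every batch as well, by 1.05, 0.25 and 1.31 with shRNF185.1 and by 0.15, 0.38 and 0.46 with shRNF185.3.

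Ace departed from this. In batches 1, 2 and 3 it differed from control by -1.14, -2.24 and -0.0015 for the first hairpin and by -1.19, -1.73 and -0.07 for the second, and those of batch 3 were the nearest to 0. The control libraries of batch 3, at 7.17 and 4.64 CPM, were the lowest of the control group. In the main fit, Ace was the single member that passed the threshold in the test of the interaction between group and batch (edgeR adjusted p 0.0374). Of all genes, 9.81% passed it. The adjusted p of Ace ranged from 0.0294 to 0.119 when single libraries were left out and was above 0.05 in 10 of those 18 fits. These were the fits without control replicate 3, 4 or 6, without shRNF185.1 replicate 3, 4 or 5, and without shRNF185.3 replicate 1, 2, 3 or 5. It was 0.535 without batch 2 and 0.268 without batch 3. The deposited tables are named for the ComBat-Seq batch adjustment, and its part in these batch differences was not tested. For Agt, Enpep, Anpep, Mme and Lnpep the interaction gave edgeR adjusted p-values of 0.353, 0.485, 0.513, 0.298 and 0.661 in the main fit. Over 8 alternative fits by edgeR, DESeq2 or limma-voom, Agt, Enpep, Anpep and Mme each stayed above 0.05 in 7, and Lnpep in 8. The lowest interaction adjusted p in those fits was 1.09e-07 for Agt, 0.00248 for Enpep, 5.72e-06 for Anpep and 4.15e-06 for Mme. With single libraries left out, Mme stayed above 0.05 in 17 of 18 edgeR fits (lowest adjusted p 0.0444). Anpep was below control in batches 1 and 2 with shRNF185.1, at -0.33 and -0.34, and above it in batch 3, at 0.72.

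**Figure D4:**
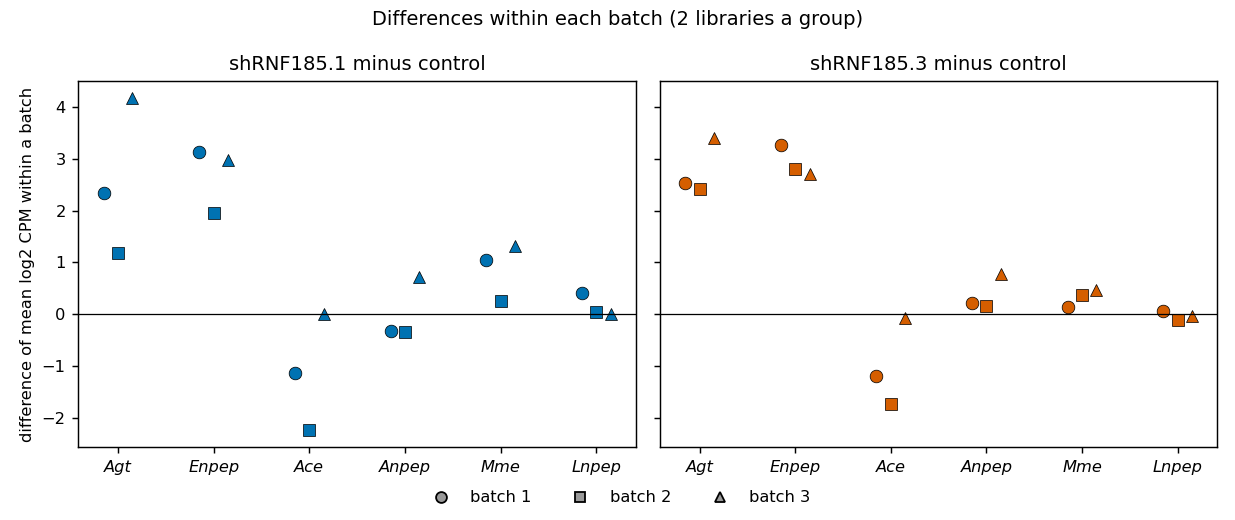
Difference of mean log2 CPM from control within each batch, shRNF185.1 on the left and shRNF185.3 on the right, with the point shape giving the batch. Agt and Enpep lie above 0 in all batches with both hairpins, and Ace lies near -1.1 in batch 1, below that in batch 2 and near 0 in batch 3.

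Within groups, the levels of Agt and Enpep were compared library by library on the log2 CPM scale. Pearson's r was 0.13 in control, 0.20 with shRNF185.1 and 0.25 with shRNF185.3 (n = 6 each), with exact permutation p-values of 0.804, 0.718 and 0.596, two-sided, or 0.804 each after Benjamini-Hochberg adjustment over the 3 relations. Spearman's rho was -0.029, 0.26 and 0.31 (exact permutation p 1, 0.658 and 0.564, adjusted 1, 0.988 and 0.988). Without the 2 libraries farthest from the median of Agt, r was 0.27, 0.90 and 0.32. No relation between the genes inside a group passed the threshold with 6 libraries, and in shRNF185.1 the size of r rests on the libraries left out.

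The genes nearest to Agt and to Enpep over all 18 libraries were found by the root mean square difference of their centred log2 CPM profiles, as a description. The centring spans all groups, so this distance includes the step from control to the hairpins for which Agt and Enpep were chosen. A gene with a step of like size therefore ranks near, and shared regulation was not tested. For Agt the nearest genes were Slfn2 at 0.57, Oas3 at 0.61 and Rsad2 at 0.62. All of these are known as interferon-inducible genes. Oas3 encodes an oligoadenylate synthetase and Rsad2 encodes viperin. For Enpep they were Gstt1, a glutathione transferase gene, at 0.43, Trim30a, a tripartite motif gene, at 0.52, and Igsf10, an immunoglobulin superfamily gene, at 0.56. Agt and Enpep differed by 0.82 from each other, which gave Enpep rank 47 among the genes nearest to Agt and gave Agt rank 79 among those nearest to Enpep. Oas3 averaged 1.82 ± 1.17, 11.4 ± 4.88 and 10.2 ± 3.38 CPM, and Gstt1 4.49 ± 1.03, 27.1 ± 7.05 and 23.6 ± 3.46 CPM.

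Protein-coding genes beside Agt and Enpep on the chromosome were examined next. Cog2, which lies 4526 bases from Agt and encodes a Golgi complex subunit, averaged 47.3 ± 2.63, 43.1 ± 1.63 and 50.8 ± 1.78 CPM. Its log2 differences were -0.13 (edgeR adjusted p 0.0232) and 0.11 (adjusted p 0.0714). Capn9 on the other side of Agt had 30 counts in all and was not tested. Beside Enpep, the fatty acid elongase gene Elovl6 differed by -0.13 (adjusted p 0.315) and 0.05 (adjusted p 0.72).

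The wider pathway was described from a list of 36 other genes: enzymes that form or cleave angiotensins, receptors and their partners, the mineralocorticoid arm and the kinins, which share peptidases with angiotensins. Of these, 35 are in the count table and 15 passed the filter on low counts. The other 20 had at most 83 counts over all libraries, and Ctsg, Cpa3 and Scnn1g had 0. With shRNF185.1, 2 of the 15 rose (Prcp and Cpm), 2 fell (Dpp3 and Nr3c2) and 11 did not pass. Of all genes, 14.6% rose and 14.3% fell with that hairpin, so on 15 genes these counts are near the background. With shRNF185.3 none rose, 2 fell (Nr3c2 and Bdkrb2) and 13 did not pass, where 14.2% of all genes rose and 13.1% fell. The 15 genes' median log2 difference was 0.02 and -0.05, beside -0.02 and -0.02 for all genes tested. Without batch 1 none of the 15 passed with shRNF185.1.

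Nr3c2, the gene of the mineralocorticoid receptor on which aldosterone acts, was the only gene of the 15 called with both hairpins. It fell from 5.89 ± 2.697 CPM to 3.13 ± 1.27 and 2.40 ± 0.713 CPM. The log2 differences were -0.91 (SE 0.30, edgeR adjusted p 0.0268) and -1.29 (SE 0.30, adjusted p 0.00355). With shRNF185.1 the adjusted p ranged from 0.0135 to 0.0772 when single libraries were left out, and the call was lost in 6 of those 18 fits, namely without control replicate 1, 3 or 5 and without shRNF185.1 replicate 2, 4 or 6. The genes called with 1 hairpin are named after their values were seen. Prcp, a lysosomal carboxypeptidase gene, rose by 0.25 (adjusted p 0.0122) and Dpp3, a dipeptidyl peptidase gene, fell by 0.17 (adjusted p 0.00805) with shRNF185.1. Cpm, a membrane carboxypeptidase gene, rose by 1.26 on the log2 scale with shRNF185.1 (adjusted p 0.0238). Its libraries averaged 13.6 ± 8.001, 32.2 ± 16.998 and 12.1 ± 4.89 CPM. Its adjusted p ranged from 0.0106 to 0.063 when single libraries were left out. The call was lost in 5 of those 18 fits, namely without control replicate 2 or 6 and without shRNF185.1 replicate 1, 3 or 5, and also without batch 3 (adjusted p 0.133). Bdkrb2, a bradykinin receptor gene, fell by 1.24 on the log2 scale with shRNF185.3 (adjusted p 0.00266), from 0.547 ± 0.107 to 0.226 ± 0.103 CPM.

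**Figure D5:**
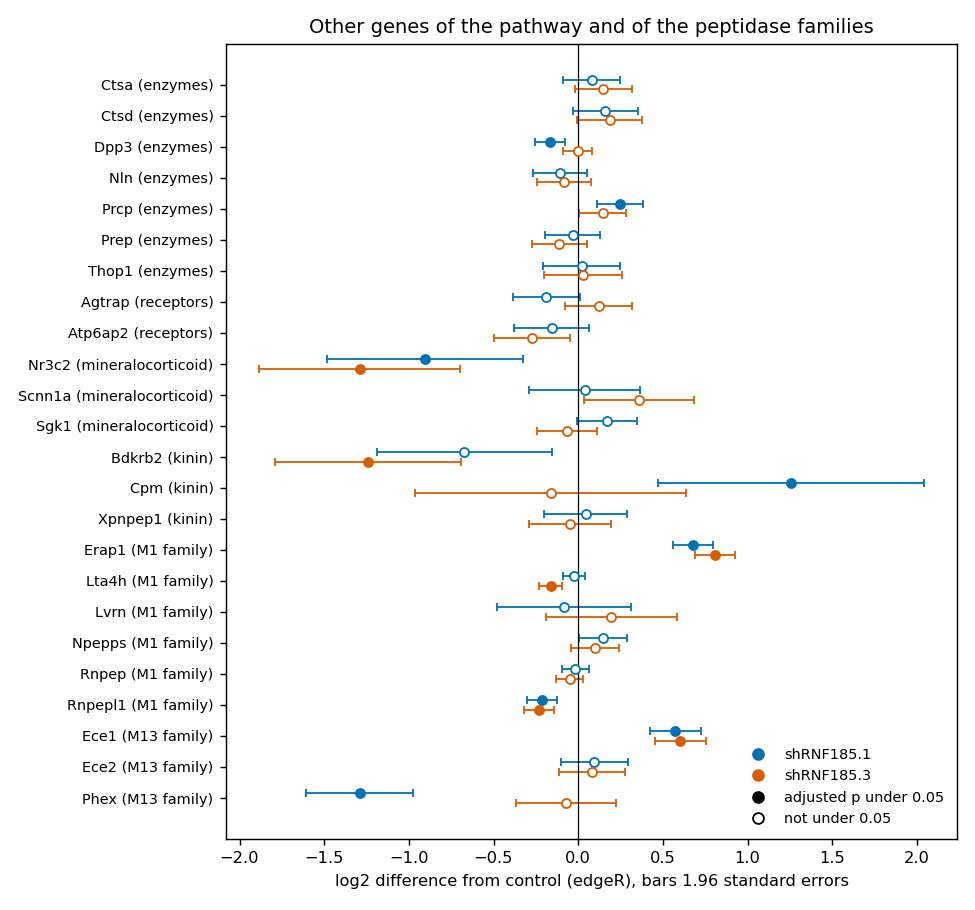
Log2 differences from control for the tested genes of the wider pathway and of the M1 and M13 peptidase families, with bars of 1.96 standard errors, and filled points where the edgeR adjusted p was under 0.05. Nr3c2 lies below 0 with both hairpins, at -0.91 and -1.29, and Erap1 and Ece1 lie above 0 with both, between 0.57 and 0.81.

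Enpep, Anpep and Lnpep belong to the M1 family of zinc aminopeptidases, and Mme to the M13 family. Of 7 other M1 genes 6 were tested. With shRNF185.1 1 rose and 1 fell, where 14.6% of all genes rose and 14.3% fell. With shRNF185.3 1 rose and 2 fell, where 14.2% rose and 13.1% fell, so on 6 genes these counts are near the background. Erap1, which trims peptides for antigen presentation in the endoplasmic reticulum, rose from 31.7 ± 3.35 CPM to 50.8 ± 0.851 and 55.4 ± 3.52 CPM, with log2 differences of 0.68 (SE 0.06, edgeR adjusted p 1.09e-07) and 0.81 (SE 0.06, adjusted p 1.87e-08). Rnpepl1 fell from 57.1 ± 2.98 to 49.3 ± 1.24 and 48.6 ± 2.88 CPM, by 0.21 (adjusted p 0.00138) and 0.23 (adjusted p 0.000774) on the log2 scale. Without batch 1 its adjusted p was 0.0723 and 0.0588. The second gene that fell with shRNF185.3 was Lta4h, named after its values were seen, by 0.16 (adjusted p 0.00119). The family's median log2 difference was -0.02 and 0.02.

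Of 6 other M13 genes 3 were tested. Ece1, which encodes endothelin-converting enzyme, rose from 30.5 ± 4.24 CPM to 45.4 ± 2.66 and 46.2 ± 2.98 CPM, with log2 differences of 0.57 (edgeR adjusted p 1.71e-05) and 0.60 (adjusted p 1.02e-05). Phex, named after its values were seen, fell with shRNF185.1 from 2.88 ± 0.829 to 1.17 ± 0.106 CPM (log2 difference -1.29, adjusted p 7.79e-06) and stood at 2.73 ± 0.399 CPM with shRNF185.3. Ece2 did not pass with either hairpin. The median of the 3 was 0.10 and 0.08.

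Transcription factors known to act on Agt were listed too. Of 11 genes 9 were tested, and with shRNF185.1 5 rose (among them Nr3c1, Cebpa, Stat3 and Nfkb1) and 1 fell (Esr1). With shRNF185.3 1 rose and none fell, while 8 did not pass. Of all genes, 14.6% rose and 14.3% fell with shRNF185.1, and 14.2% rose and 13.1% fell with shRNF185.3. Cebpa, a C/EBP family gene, was the one called with both hairpins, at 2.03 ± 0.213, 3.85 ± 0.768 and 3.09 ± 0.227 CPM, with log2 differences of 0.92 (SE 0.13, edgeR adjusted p 2.19e-05) and 0.61 (SE 0.13, adjusted p 0.00143). The list's median log2 difference was 0.31 and 0.10, beside -0.02 and -0.02 for all genes tested.

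Marker genes of other cells were examined beside these results because Agt, Enpep or Anpep are also known from pericytes, fibroblasts, hepatocytes, adipocytes and kidney tubule cells. Of the 6 pericyte markers, 2 were called higher with both hairpins (Notch3 and Pdgfrb), where 8.99% of all genes were, and Rgs5 did not pass. Cspg4 and Abcc9 had 52 and 4 counts in all, and Kcnj8 had 0. Their summed level was 159.5 to 199.5 CPM in control, 209.7 to 219.0 with shRNF185.1 and 214.0 to 294.9 with shRNF185.3, most of it from Pdgfrb. Of the 5 fibroblast markers, 1 rose and 1 fell with shRNF185.1 and 3 rose with shRNF185.3, beside the background of 14.6%, 14.3% and 14.2% of all genes in the same order, and their summed level was 3253 to 4286, 3666 to 4347 and 3995 to 4803 CPM. Thy1 had 3 counts in all.
The epithelial markers Krt8, Krt18 and Cdh1 fell with both hairpins, as did 7.13% of all genes, and the 4 markers listed summed to 1429 to 1743 CPM in control, 880.7 to 1155 with shRNF185.1 and 952.3 to 1020 with shRNF185.3. The part of these shifts in the levels of Agt, Enpep and Ace was not tested. Summed hepatocyte markers (Alb, Ttr, Apoa1 and Apoa2) reached at most 0.244 CPM in any library and adipocyte markers at most 0.0784 CPM. Of the kidney proximal tubule markers, Cubn averaged 5.02 ± 0.196, 5.50 ± 0.558 and 6.41 ± 0.596 CPM. It differed by 0.13 (edgeR adjusted p 0.224) with shRNF185.1 and rose by 0.36 (adjusted p 0.00226) with shRNF185.3, where all 6 libraries lay above the highest control. Lrp2 and Slc34a1 had 20 and 2 counts in all. The part of this shift in the levels of Agt and Enpep was not tested either. Endothelial markers summed to at most 0.744 CPM and leukocyte markers to at most 5.16 CPM.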

How the data were processed

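The authors deposited estimated counts per gene and a library-scaled signal (CPM), both named for the ComBat-Seq batch adjustment. The submitters' processing notes name cutadapt 2.3, STAR 2.7.0d, RSEM 1.3.1 and build mm10. The annotation, strand setting and adjustment model are not given in the sources used here. Counts, of which 0.466% were not whole, were rounded. Here R 4.3.3 with edgeR 4.0.16 was used: filterByExpr (minimum count 10), TMM scaling, a mean per group over all 18 libraries, quasi-likelihood F tests and Benjamini-Hochberg adjustment over 14309 genes. The interaction test added batch. Alternatives used DESeq2 1.42.0 and limma 3.58.1, other scalings and filters, a block, and fewer libraries. Levels are the deposited CPM, or counts over totals for genes not in that table. Within-batch differences and profiles use log2 CPM with a prior count of 2. Positions and lengths are from GENCODE M21, matched by identifier. The fits were also run on simulated counts with the same dispersion for every gene and no batch differences. Such counts cannot show the error rates for these libraries. Libraries of a group differed beyond sampling noise (chi-square per gene 7.64 or more over 45 pairs). Columns without a sample numbered 0. Named genes were the 9 members, list genes called with both hairpins, Mas1, Agtr1b and Atp6ap2, the 3 nearest profiles and the flanking coding genes of Agt and Enpep. The members, lists and tests were chosen with earlier results of these data known. The promoter patterns were chosen after the files had been opened. Some genes that these rules name are not reported here.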

Additional observations from a re-analysis of the deposited data

Results flagged for a closer look

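Mme was set apart by 1 library in each hairpin group. In shRNF185.1, replicate 4 stood at 3.67 log2 CPM, far below the other libraries of its group. In shRNF185.3, replicate 4 stood at 4.61 log2 CPM, far above the others. These were 2 of 18 groups of 6 values examined for the 6 members, where chance gives about 1 in 20, or 0.9. Without shRNF185.1 replicate 4 the log2 difference between the hairpins for Mme was -0.71, and it was -0.57 with all libraries.

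A direct test found a difference between the hairpins, as shRNF185.3 against shRNF185.1, in Mme at -0.57 (edgeR adjusted p 0.0362), Dpp3 at 0.16 (adjusted p 0.0168), Cpm at -1.42 (adjusted p 0.0226), Lta4h at -0.14 (adjusted p 0.00734) and Phex at 1.22 (adjusted p 3.77e-05). These are the members and listed peptidase genes that passed. Of the other listed genes that are not cell type markers, Agtrap at 0.31 (adjusted p 0.0453) and Rela at -0.20 (adjusted p 0.0376) also passed, and they are named after their values were seen. The Agt neighbour Cog2 passed too, at 0.24 (adjusted p 0.000677). Ace differed between batches in its contrast with control, with an edgeR adjusted p of 0.0374 for the interaction, and its within-batch differences were nearest to 0 in batch 3.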

How the results depend on the processing

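Agt and Enpep kept their direction under all alternatives run. This follows from every hairpin library of both genes lying above the highest control and adds no separate result. The log2 differences of Agt and Enpep from control spanned 1.48 to 3.32 and 1.78 to 3.25 with shRNF185.1. With shRNF185.3 they spanned 1.61 to 3.03 and 1.98 to 3.22. The lowest of each came from limma on log2 of CPM plus 1, which by construction compresses low genes. Counts of genes called kept within 1.5 times except as follows; the cause was not tested. Without batch 1 they were 2207 (shRNF185.1), 2120 (shRNF185.3) and 753 (between hairpins), against 4141, 3906 and 2098 with all libraries, and 0 wider pathway genes were called with shRNF185.1. Without batch 3 they were 2501 for shRNF185.3 and, without batch 2, 1208 between hairpins. With an odd or even replicate number as a term, chosen after seeing the data, 4 wider pathway genes were called with shRNF185.3. Interaction calls were 2339 with DESeq2, 3169 without a filter, 43 without batch 2, 892 without batch 3 and 503 to 1649 without single libraries, against 1404 with all (902 and 503 without control replicates 3 and 4, 810 and 550 without shRNF185.1 replicates 3 and 4). Members called between hairpins were 0 with limma-voom, with both CPM fits, with the batch covariate, with summed libraries and without batch 1 or 3, and 0 to 1 without single libraries.

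With the replicate number as a block, 3811, 3578 and 1976 genes were called, 0 members passed between the hairpins (Mme -0.56, adjusted p 0.0873), and 4 and 2 wider pathway genes were called against control, as without the block. Members called against control were not counted under the alternative fits, since the choice of the members used those contrasts. With batch as a covariate, 3559 genes were called with shRNF185.1, 3260 with shRNF185.3 and 1631 between the hairpins. Same-numbered libraries of different groups correlated at -0.0144 on average over 18 pairs, in their deviations from group means. Between groups, libraries of the same batch with another number correlated at -0.434, and those of other batches at 0.111. The main fits did not pair libraries by number, and whether the numbers pair them was not tested. Depth limits Agt in control, at 4 to 29 counts a library.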

Other observations

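Agt, Ace and Lnpep were higher in the odd-numbered than in the even-numbered library in 8 of the 9 pairs of libraries of the same group and batch, and Anpep in 9 of 9. Mme was so in 6 pairs and Enpep in 3. Among all tested genes 13.9% had at least 8 such pairs and 5.36% had 9. The labels give odd and even numbers no meaning, and no cause was tested.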
